A study of Mus musculus with 12 samples.

Results

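The collagen genes are the genes whose products assemble into the collagens, the rod-like structural proteins of the extracellular matrix. They were taken here as every protein-coding row of a liver RNA-seq count table whose GENCODE M21 symbol has the form of a collagen chain gene (Col, a type number, a, a chain number) and which held at least 1 count in any liver. Of 53465 genes in the table, 44 had such a symbol and 43 had a count. The missing member was Col2a1, the cartilage collagen, which had no count in any of the 12 livers. A count of 0 allows up to 3 counts per library, which is between 0.285 and 0.369 CPM at these depths. The livers came from male C57BL/6N mice in 3 age groups, called young at 3 months, middle-aged at 12 months and aged at 18 months, 4 livers to each age and each library from a single animal. No allele or agent was named for any group. Whole liver was used, so every value is a mixture of all liver cells, and fewer cells of a type cannot be told apart from less RNA per cell. The comparisons asked how collagen transcripts differed between the ages, and whether replicates 1 and 2 gave the same picture as replicates 3 and 4.

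A collagen is built from alpha chains that wind around each other in a helix with glycine at regular positions. Fibrillar collagens (types I, III and V among others) form the fibres of the liver capsule, portal tracts and scars, and are made mainly by stellate cells, fibroblasts and mesothelial cells. Type IV collagens form the sheet of basement membranes, type VI forms beaded microfilaments, the FACIT collagens sit on the surface of fibrils, and the multiplexins (types XV and XVIII) carry sugar chains and lie at the edge of basement membranes. Type XVIII is unusual in being made in quantity by hepatocytes, and its end piece is released as endostatin.

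Counts assigned to genes lay between 8124312 and 10527159 per library. Synthetic spike-in RNAs separated the libraries into replicates 1 and 2 of every age and replicates 3 and 4 of every age. Over 31 spike-ins with at least 50 counts in every library, the correlation of log counts was at least 0.9968 within these sets and at most 0.9252 between them. Each set holds 2 livers of every age. Young replicate 3 and middle-aged replicate 1 had more genes with a count (22284 and 19982) than the other livers (16361 to 17563). Summed hepatocyte markers were between 780400 and 1024900 normalised counts, while 3 of 6 smooth muscle and myofibroblast markers and 4 of 5 pancreatic markers were under 10 in every library. Normalised counts here are counts divided by the DESeq2 size factor of their library.

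The following sequences, from RefSeq on build GRCm38.p6, lie at annotated starts of genes that lead this family. They are the 250 bases before the annotated start of the fibrillar genes with the highest level per length and of Col18a1, the highest of all, each 5′ to 3′ on the strand of its gene, followed by the stretch shared by the start regions of Col4a1 and Col4a2. Capitals mark the CCAAT box (CCAAT), the GC box (GGGCGG) and the TATA box (TATAAA), searched on both strands. The Col5a3 stretch lies at chr9:20815068-20815317 on the minus strand, the Col3a1 stretch at chr1:45311288-45311537 on the plus strand and the Col18a1 stretch at chr10:77166531-77166780 on the minus strand, where its last 18 bases are annotated as exon in GENCODE M21. The shared stretch of 22 bases lies at chr8:11312805-11312826 and is printed on the plus strand. A second annotated start of Col18a1, at chr10:77113705, is not printed. Of the 250 bases before it, 241 lie in exons of Col18a1. Counts per gene cannot show which start was used.
Col5a3: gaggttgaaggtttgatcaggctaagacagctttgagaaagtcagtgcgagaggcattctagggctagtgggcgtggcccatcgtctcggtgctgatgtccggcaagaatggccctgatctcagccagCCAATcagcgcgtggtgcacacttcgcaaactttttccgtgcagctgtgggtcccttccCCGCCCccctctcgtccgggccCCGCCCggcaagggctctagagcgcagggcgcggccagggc
Col3a1: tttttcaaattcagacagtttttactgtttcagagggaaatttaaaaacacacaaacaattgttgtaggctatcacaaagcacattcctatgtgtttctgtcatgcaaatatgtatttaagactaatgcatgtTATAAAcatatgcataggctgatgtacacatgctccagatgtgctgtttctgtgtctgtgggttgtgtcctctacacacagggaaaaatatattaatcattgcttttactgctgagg
Col18a1: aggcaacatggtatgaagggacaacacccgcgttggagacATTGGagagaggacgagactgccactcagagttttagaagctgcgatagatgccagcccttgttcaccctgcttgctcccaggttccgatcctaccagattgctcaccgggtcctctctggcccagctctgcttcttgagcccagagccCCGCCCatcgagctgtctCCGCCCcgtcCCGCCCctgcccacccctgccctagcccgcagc
Col4a1 and Col4a2: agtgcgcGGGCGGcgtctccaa

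Col5a3 held a CCAAT box with its near end 117 bases before the start and GC boxes at 57 and 35 bases. Before its printed start, Col18a1 held 3 GC boxes, at 55, 37 and 27 bases, and a CCAAT box on the other strand at 205 bases. Col3a1 held neither, but a TATA box at 111 bases, and 35.2% of its bases were G or C against 62.8% for Col5a3 and 62.0% for Col18a1. Start regions were found for 35 of the 43 members, 38 starts in all. A GC box was present in 22 of these 38 (57.9%) against 32.7% of all 32851 starts of the same length, a CCAAT box in 13 (34.2%) against 33.9%, and a TATA box in 5 (13.2%) against 12.4%. Such matches are a description of the letters and not of a bound factor. The annotated Col4a1 and Col4a2 genes point away from each other, and their 5′ ends overlap in the 22 bases shown, which hold a GC box. Col4a4 and Col4a3 are also arranged head to head, with 71 bases between them, as are Col4a6 and Col4a5 with 1308 bases. Beyond this overlap, the other genes that share exonic bases with a collagen averaging 10 or more normalised counts were short or unexpressed: none of the 5 had over 8 counts in all libraries together.

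Col18a1 was by far the leading collagen transcript of the liver. It took 73.4% ± 4.40 of all collagen counts in the young livers, 75.6% ± 5.94 in the middle-aged and 78.0% ± 5.18 in the aged ones (SD, n = 4 each). Per kilobase of the longest coding transcript, its mean over the 12 livers was 1533 normalised counts. The next levels on the same scale were 71.8 for the FACIT gene Col14a1, 66.6 for Col3a1, 62.8 for Col5a3, 42.5 for Col4a1 and 31.0 for Col4a2. With the union of annotated exons as length, the order of Col3a1 and Col5a3 was exchanged and the other ranks down to the sixth were the same. By class, the 2 multiplexins took 76.4% of all collagen counts over the 12 livers, the 10 fibrillar genes 11.5%, the 6 type IV genes 4.71%, the 9 FACIT genes 4.63% and the 6 type VI genes 2.06%. The 4 transmembrane, 4 short chain and anchoring and 2 other collagens together made up the rest, with 0.494, 0.133 and 0.0166%.

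**Figure D1:**
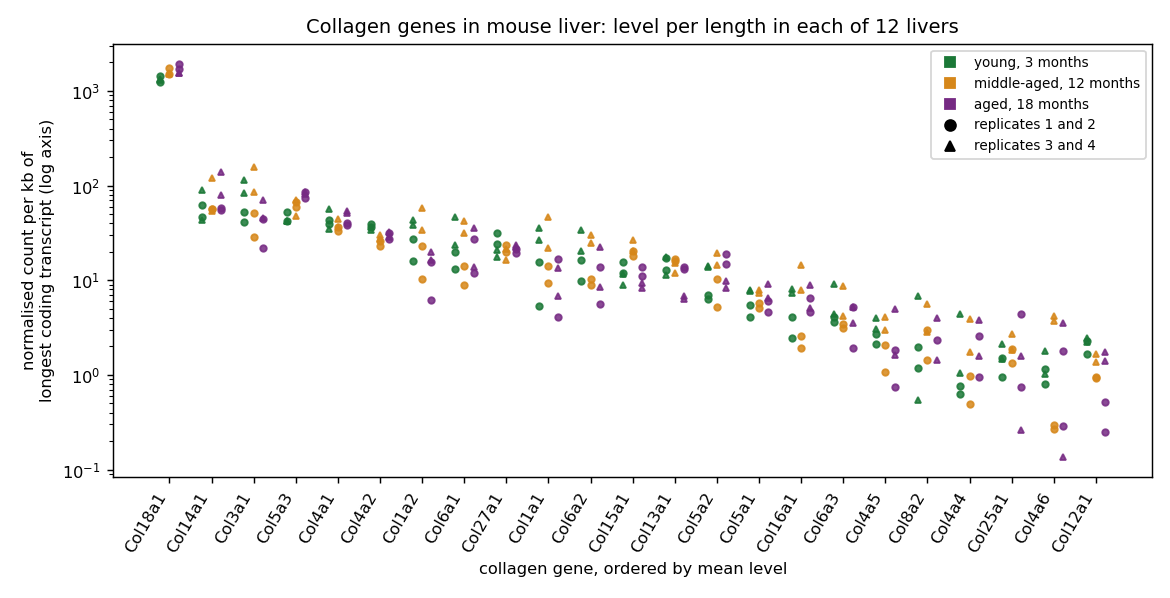
Normalised counts per kilobase of the longest coding transcript (log axis) for the 23 collagen genes that averaged 10 or more normalised counts, each point 1 of 12 livers, coloured by age and shaped by replicate set; values of 0 are not drawn. Col18a1 lies above every other collagen gene in all 12 livers, and the points of genes such as Col1a1, Col4a4 and Col4a6 spread more widely within an age than those of Col18a1, Col4a1 or Col4a2.

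Of the 43 members, 25 had a count in every library and 24 reached 10 counts in at least 4 libraries. In all, 23 averaged 10 or more normalised counts, and the averages of the other 20 ranged from 0.155 (Col10a1, the growth plate collagen) to 9.12 (Col4a3). These low members included the cartilage genes Col9a1, Col9a2, Col9a3, Col11a1 and Col11a2 and the anchoring fibril gene Col7a1. Some low members followed the libraries in which many genes were detected. Col19a1 held 0, 0, 8.29 and 0 normalised counts in young replicates 1 to 4, 2.98 in middle-aged replicate 1 and none elsewhere. Col26a1 likewise held 7.11 in young replicate 3, 2.98 in middle-aged replicate 1 and none in the other 10 livers, and Col6a4 held 2.98 in middle-aged replicate 1 alone. Col6a5, a type VI chain, stood highest in middle-aged replicate 3 (31.8) and young replicate 3 (15.4) and was at 0 in all aged livers. Those same 2 livers had the highest sums of 5 adipocyte markers, 559.8 and 64.0 normalised counts, against 0.963 to 16.6 in the other 10 livers. The part of these libraries in the values of Col6a5 was not tested. None of Col19a1, Col26a1, Col6a4 or Col6a5 was called in a main comparison, but DESeq2 gave the first 3 no adjusted p in any of them. Col6a5 had one for aged against young (DESeq2 adjusted p = 0.131). It had none for aged against middle-aged, where the log2 fold change was -5.91 (DESeq2 unadjusted p = 0.00106).

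Between young and aged livers, Col5a3 and Col18a1 rose, and no collagen gene that fell passed the test. These 2 were called among 28 members with an adjusted p, where 3.58% of the 13527 genes tested were called (DESeq2 adjusted p under 0.05). Of the 28, 12 had a log2 fold change above 0, and their median was -0.17 against -0.0003 over all genes. Between young and middle-aged livers, Col15a1 and Col5a3 rose and Col4a2 fell, 3 of 20 members, against 6.41% of 11333 genes. Between middle-aged and aged livers Col15a1 fell, 1 of 17 members, against 1.14% of 10236 genes. A likelihood ratio test over the 3 ages called Col5a3, Col15a1, Col18a1 and Col4a2, 4 of 24 members, against 6.96% of 12430 genes. Each of these comparisons shares a group of livers with another, so they are not independent of each other. Without the pair of libraries with the most detected genes, Col5a3 alone was called for aged against young, beside 302 of 13521 genes. No member was then called for middle-aged against young, beside 271 of 12609 genes.

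Col5a3 (chromosome 9, 20770050 to 20815067, GRCm38, minus strand) encodes a chain of type V collagen, which takes part in the start of fibrils. Its normalised counts were 260.1, 319.7, 258 and 261 in young replicates 1 to 4, 363, 416, 433 and 289.6 in the middle-aged replicates and 527, 455, 504 and 523 in the aged replicates. All 4 aged livers lay above all 8 younger ones, and 3 of the 4 middle-aged livers lay above all young livers. The means were 275 ± 30.02, 375 ± 64.3 and 502 ± 33.2 (SD, n = 4 each). Aged livers held 1.83 times the young level (log2 fold change 0.87 and SE 0.14, adjusted p = 1.33e-07 by DESeq2), and middle-aged livers 1.37 times (log2 fold change 0.45 and SE 0.14, adjusted p = 0.0217 by DESeq2). The step from middle-aged to aged was 0.42 on the log2 scale and did not pass (DESeq2 adjusted p = 0.0913). The aged-young difference was 0.76 within replicates 1 and 2 (DESeq2 adjusted p = 0.0679) and 0.98 within replicates 3 and 4 (DESeq2 adjusted p = 0.000753). It stayed called without any single library. The middle-aged call was lost without young replicate 1, 3 or 4 or middle-aged replicate 2 or 3, with DESeq2 adjusted p between 0.0543 and 0.123.

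Col18a1 (chromosome 10, 77052178 to 77166548, minus strand), which encodes the endostatin-bearing type XVIII collagen, rose less steeply. Counts after size normalisation were 8083, 6895, 7391 and 7369.8 in young replicates 1 to 4, 8418, 9857, 8641 and 8409.8 in the middle-aged replicates and 9567, 10861, 8680.5 and 8733 in the aged replicates. Every aged liver and every middle-aged liver lay above every young one, and middle-aged and aged livers overlapped. The means were 7435 ± 489, 8831 ± 692 and 9460.2 ± 1018 (SD, n = 4 each). Aged livers held 1.27 times the young level (log2 fold change 0.35 and SE 0.091, adjusted p = 0.00889 by DESeq2). In middle-aged livers the ratio was 1.19 and was not called (log2 fold change 0.25 and SE 0.092, adjusted p = 0.0755 by DESeq2). The aged-young difference was 0.45 in replicates 1 and 2 and 0.24 in replicates 3 and 4, neither called alone. Summed hepatocyte markers ran from 780400 to 847860 normalised counts in young and from 810950 to 1024900 in aged livers. Of the 8 markers in this sum, only 2 had an aged-young log2 fold change above 0 (median -0.10), and none was called. The part of hepatocytes in the Col18a1 values was not tested. The pooled call was lost without young replicate 2, young replicate 3 or aged replicate 2 (DESeq2 adjusted p = 0.069, 0.0562 and 0.0553), and edgeR did not call it (adjusted p = 0.0956 without and 0.1003 with its filter on low counts).

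Col15a1 (chromosome 4, 47208161 to 47313167, plus strand) encodes the related type XV collagen of vascular and muscle basement membranes, and was highest at 12 months. Its normalised counts were 80.7, 62.4, 60.4 and 45.9 in young replicates 1 to 4, 92.3, 106, 139 and 104 in the middle-aged replicates and 71.3, 57.8, 48.1 and 42.9 in the aged replicates. All 4 middle-aged livers lay above all young and aged livers, which overlapped each other. The means were 62.3 ± 14.3, 110.3 ± 19.8 and 55.0 ± 12.5 (SD, n = 4 each). The middle-aged level was 1.77 times the young one (log2 fold change 0.83 and SE 0.23, adjusted p = 0.0113 by DESeq2), and the aged level was 0.497 times the middle-aged one (log2 fold change -1.01 and SE 0.23, adjusted p = 0.00335 by DESeq2). Aged and young livers were not called apart, with a difference of -0.18 (95% interval -0.65 to 0.29). Within replicates 1 and 2 the middle-aged rise was 0.47 and within replicates 3 and 4 it was 1.19, and the later fall was -0.62 and -1.41, the last of which was called (DESeq2 adjusted p = 0.0275). The rise was not called without young replicate 4 or middle-aged replicate 3 (DESeq2 adjusted p = 0.0621 and 0.0841), nor the later fall without middle-aged replicate 3 or aged replicate 4 (0.0567 and 0.0552). Middle-aged replicate 3 also held the highest sum of fibroblast markers (1396 normalised counts) and of adipocyte markers. It was likewise highest for large vessel endothelial markers (345) and for smooth muscle and myofibroblast markers (92.7). The highest livers of the smooth muscle list were middle-aged replicates 3, 2 and 4, as for Col15a1, though 3 of its 6 genes stayed under 10 in every library. The part of these cells was not tested.

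Col4a1 and Col4a2 (chromosome 8, 11198423 to 11312826, minus strand, and chromosome 8, 11312805 to 11449287, plus strand) encode the chains of the common basement membrane network and start from the shared stretch printed above. Col4a2 normalised counts were 254, 236, 218 and 234 in young replicates 1 to 4, 167, 148, 175 and 194 in the middle-aged replicates and 205, 174, 208 and 184 in the aged replicates. Every young liver lay above every middle-aged and every aged liver. The means were 235 ± 14.6, 171 ± 19.2 and 193 ± 16.2 (SD, n = 4 each), and the middle-aged level was 0.725 times the young one (log2 fold change -0.46 and SE 0.12, adjusted p = 0.00681 by DESeq2). The aged-young difference did not pass (log2 fold change -0.29 and SE 0.12, adjusted p = 0.18 by DESeq2). Without middle-aged replicate 2 the middle-aged call was lost (DESeq2 adjusted p = 0.0603).

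For Col4a1 the normalised counts were 289.8, 259, 231 and 378 in young replicates 1 to 4, 244, 221, 245 and 296 in the middle-aged replicates and 265, 252, 356 and 341 in the aged replicates. The ages overlapped, and its differences were -0.21 for middle-aged against young (95% interval -0.55 to 0.14) and 0.067 for aged against young (95% interval -0.28 to 0.41). The ratio of Col4a1 to Col4a2 normalised counts was 1.14, 1.10, 1.06 and 1.61 in young replicates 1 to 4, 1.46, 1.49, 1.40 and 1.52 in the middle-aged replicates and 1.29, 1.45, 1.71 and 1.85 in the aged replicates. Its means were 1.23 ± 0.259, 1.47 ± 0.0519 and 1.58 ± 0.251 (SD, n = 4 each), with young replicate 4 within the range of the aged livers. Two-sided exact permutation tests of the log2 ratio, chosen after both genes were seen, gave p = 0.143 for middle-aged against young, p = 0.0857 for aged against young and p = 0.486 for aged against middle-aged. Adjusted over the 3 tests these were 0.214, 0.214 and 0.486, and 4 livers against 4 cannot go below 0.0286. A difference between the partner genes in their age course was therefore not shown.

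**Figure D2:**
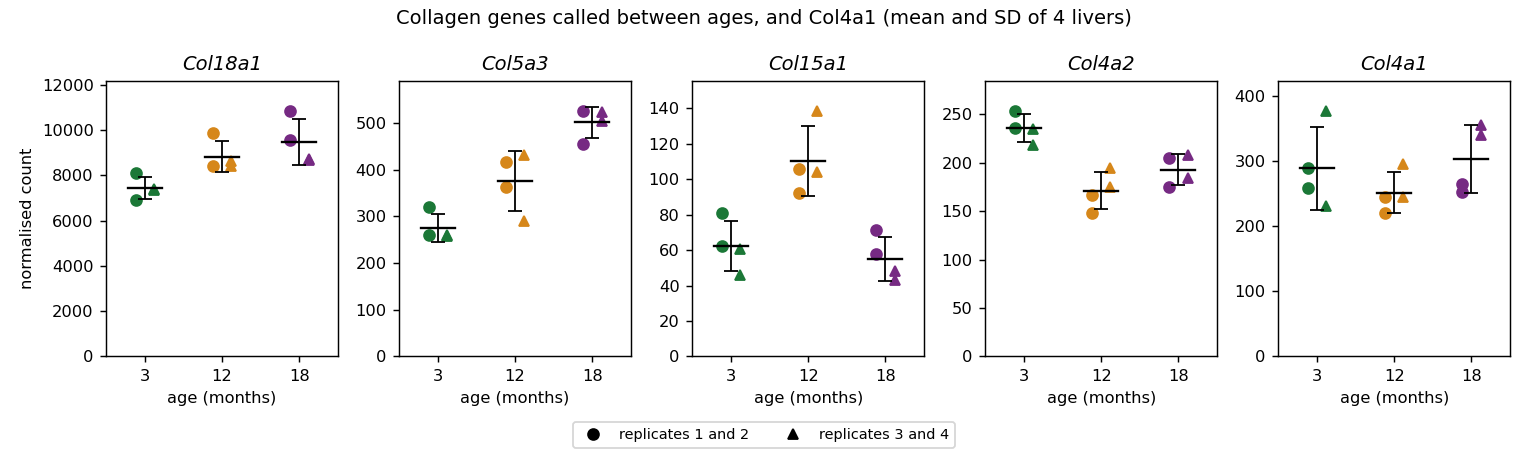
Normalised counts of the 4 collagen genes called between ages and of Col4a1, by age in months, with circles for replicates 1 and 2, triangles for replicates 3 and 4, and the mean with SD of 4 livers as a line and bars. Col5a3 in the 4 aged livers (455 to 527) lies above all younger livers, Col15a1 is highest at 12 months, and Col4a2 is lower in all 12- and 18-month livers than in all 3-month livers.

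The genes of type I and type III collagen, the main fibre-forming collagens, varied more between livers of an age than between ages. Col3a1 (chromosome 1, 45311538 to 45349706, plus strand) had normalised counts of 292, 229, 470.4 and 645 in young replicates 1 to 4, 161, 286, 866 and 481 in the middle-aged replicates and 248, 123, 393 and 251 in the aged replicates. Col1a1 (chromosome 11, 94936224 to 94953042, plus strand) had 93.4, 31.8, 159 and 213 in young replicates 1 to 4, 55.6, 84.4, 274 and 129 in the middle-aged replicates and 98.3, 24.1, 80.4 and 40.2 in the aged replicates. Col1a2 (chromosome 6, 4504814 to 4541544, plus strand) had 144, 85.3, 204 and 233 in young replicates 1 to 4, 55.6, 124, 309.9 and 180.4 in the middle-aged replicates and 84.3, 32.8, 107 and 87.6 in the aged replicates. In all 3 genes the highest liver was middle-aged replicate 3, the lowest was aged replicate 2, and the ages overlapped. For Col1a2, 3 of 4 young and 3 of 4 middle-aged livers lay above all aged ones.

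None of these 3 genes was called between ages in the fit of all 12 livers. Aged against young, the difference was -0.69 for Col3a1 (95% interval -1.76 to 0.39, DESeq2 adjusted p = 0.605), -1.03 for Col1a1 (-2.36 to 0.29, 0.495) and -1.10 for Col1a2 (-1.99 to -0.21, 0.172). The intervals for Col3a1 and Col1a1 include 0. With the replicate set as a covariate Col1a2 was called (DESeq2 adjusted p = 0.036). Within replicates 3 and 4 alone, Col1a1 fell by 1.63 on the log2 scale (DESeq2 adjusted p = 0.00271) and Col1a2 by 1.17 (DESeq2 adjusted p = 0.00681), where 4.22% of the genes tested were called, whereas within replicates 1 and 2 the values were -0.042 and -0.98, neither called. The difference of the aged-young change between sets was not called for either gene (DESeq2 adjusted p = 0.755 and 1). From middle-aged to aged livers, all 3 genes fell within replicates 3 and 4, by 1.74 for Col1a1, 1.33 for Col1a2 and 1.06 for Col3a1 (DESeq2 adjusted p = 0.00143, 0.00154 and 0.00723), where 2.47% of the genes tested were called. Within replicates 1 and 2 the same differences were -0.20, -0.62 and -0.27, none called, and whether this step differed between the sets was not tested. The highest liver of all 3 genes, middle-aged replicate 3, belongs to replicates 3 and 4.

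Among the remaining fibrillar genes, Col27a1, which encodes a fibrillar chain best known from cartilage, had normalised counts of 184, 241, 134 and 157 in young replicates 1 to 4, 181, 153, 124 and 162 in the middle-aged replicates and 164, 149, 170.4 and 179 in the aged replicates. Young replicate 2 was the highest liver and the ages overlapped (log2 fold change -0.11 and SE 0.18, adjusted p = 0.854 by DESeq2, aged against young). Col5a1, the usual type V chain, had 45.6, 34.4, 66.4 and 65.4 in young replicates 1 to 4, 42.7, 48.5, 66.2 and 61.1 in the middle-aged replicates and 50.2, 38.5, 54.2 and 76.9 in the aged replicates. Its means differed little between ages (52.9 ± 15.6, 54.6 ± 10.9 and 54.9 ± 16.1, SD, n = 4 each), and the aged-young difference was 0.051 with a 95% interval of -0.51 to 0.61. Among the type V genes, Col5a3 was thus called with age and Col5a1 and Col5a2 were not, and the difference between these genes was not tested.

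The type VI genes encode the chains of beaded filaments that surround cells. Col6a1 (chromosome 10, 76708792 to 76726168, minus strand) had normalised counts of 54.1, 81.5, 96.0 and 193 in young replicates 1 to 4, 36.7, 57.5, 129.8 and 171 in the middle-aged replicates and 112, 49.1, 145 and 57.2 in the aged replicates. Col6a2 (chromosome 10, 76595762 to 76623630, minus strand) had 45.6, 76.4, 94.8 and 156 in young replicates 1 to 4, 41.7, 48.5, 117 and 140.3 in the middle-aged replicates and 64.2, 26.0, 105 and 39.3 in the aged replicates. Col6a3 (chromosome 1, 90765923 to 90843971, minus strand) had 41.4, 36.9, 45.0 and 91.8 in young replicates 1 to 4, 31.8, 35.0, 42.4 and 87.2 in the middle-aged replicates and 52.2, 19.3, 53.3 and 35.8 in the aged replicates. Young replicate 4 was the highest liver for all 3 genes, followed by middle-aged replicate 4, and the ages overlapped throughout. Aged against young, the differences were -0.23, -0.67 and -0.43, with DESeq2 adjusted p of 0.894, 0.554 and 0.702.

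Col14a1 (chromosome 15, 55307750 to 55520803, plus strand), a FACIT collagen that binds fibrils through decorin, ranked behind Col18a1 in level per length. Its normalised counts were 402, 303, 281 and 578 in young replicates 1 to 4, 364, 367, 347 and 779.7 in the middle-aged replicates and 376, 353, 904 and 509.5 in the aged replicates. The highest livers were aged replicate 3, middle-aged replicate 4 and young replicate 4, 1 at each age, and no age comparison called it (aged against young, log2 fold change 0.45 and SE 0.33, adjusted p = 0.562 by DESeq2). The same 3 livers were the highest for Col6a1, Col6a3, Col4a4, Col4a5 and Col8a2 among the 23 members that averaged 10 or more. The summed mesothelial markers of these 3 livers were 1639, 1880 and 1098 normalised counts. The sums of the other 9 livers ran from 117 to 704, apart from 1268 in middle-aged replicate 3. Fibroblast markers summed to 1093, 1127.5 and 928 in the same 3 livers, against 370 to 720 elsewhere apart from 1396 in middle-aged replicate 3. Stellate cell markers summed to 2190, 2163 and 2119.5, against 1639 to 1976 elsewhere apart from 2456.5 in aged replicate 4. The part of these cells was not tested.

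The other collagen genes that averaged 10 or more normalised counts were not called between ages, and those singled out here were chosen after their values were seen. Col12a1, a FACIT collagen, had 26.5, 19.1, 28.4 and 25.4 in young replicates 1 to 4, 10.9, 10.8, 15.9 and 19.0 in the middle-aged replicates and 6.02, 2.89, 20.1 and 16.1 in the aged replicates normalised counts, and its aged-young difference was -1.13 (95% interval -2.08 to -0.18, DESeq2 adjusted p = 0.194). Col13a1, a transmembrane collagen of cell contacts, had 40.3, 54.8, 55.7 and 36.1 in young replicates 1 to 4, 52.6, 50.3, 47.7 and 38.1 in the middle-aged replicates and 41.1, 43.3, 20.1 and 21.5 in the aged replicates. Its lowest livers were aged replicates 3 and 4, and aged differed from middle-aged livers by -0.59 (95% interval -1.18 to -0.0074, DESeq2 adjusted p = 0.487). The remaining 6 (Col16a1, Col4a4, Col4a5, Col25a1, Col8a2 and Col4a6) had adjusted p of at least 0.822 for aged against young. Col4a3, the head-to-head neighbour of Col4a4, had too few counts (9.12 on average) for the pair to be compared.

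**Figure D3:**
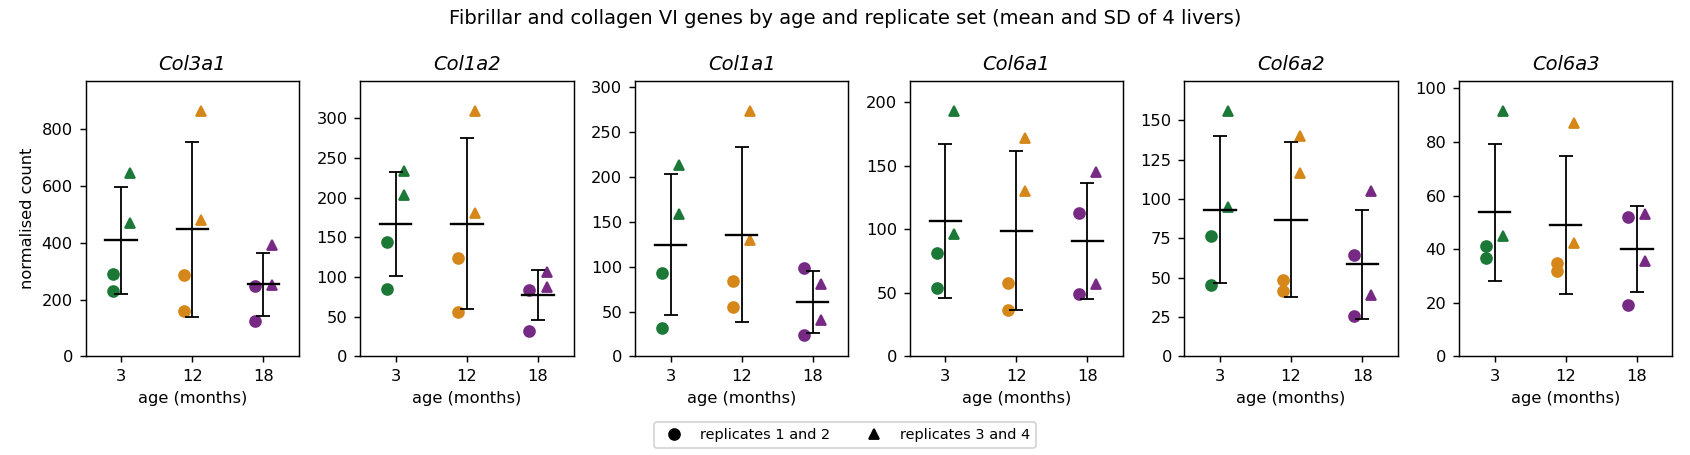
Normalised counts of 3 fibrillar and 3 type VI collagen genes by age in months, with circles for replicates 1 and 2, triangles for replicates 3 and 4, and the mean with SD of 4 livers as a line and bars. For Col3a1 and Col1a2 the triangles lie above the circles at every age, and the SD bars of the 3 ages overlap in all 6 genes.

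The replicate sets were compared with age in the model. This contrast was chosen knowing that connective tissue transcripts differed between the sets, so it is a description of which collagens took part. Col3a1 and Col1a2 were higher in replicates 3 and 4, 2 of 28 members with an adjusted p. Over all 14108 genes 0.361% were called, and 0.326% were called as higher in replicates 3 and 4. The Col3a1 counts ran from 123 to 292 in replicates 1 and 2 and from 251 to 866 in replicates 3 and 4 (log2 fold change 1.16 and SE 0.23, adjusted p = 0.00231 by DESeq2). The Col1a2 counts ran from 32.8 to 144 and from 87.6 to 309.9 (log2 fold change 1.04 and SE 0.27, adjusted p = 0.0422 by DESeq2). The ranges overlapped over all ages, but at each age both livers of replicates 3 and 4 lay above both livers of replicates 1 and 2. Col5a1 was the only other of the 28 members with this order at all 3 ages (3 of 28), which held for 1.03% of all genes tested.

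The other members leaned the same way without being called. Of the 28, 19 had a log2 fold change above 0 and 9 below, and the median was 0.66 against -0.0015 over all genes. The differences were 1.08 for Col6a2 (DESeq2 adjusted p = 0.0626), 1.03 for Col6a1 (0.122), 1.04 for Col1a1 (0.292) and 1.48 for Col4a4 (0.173). The FACIT gene Col16a1 held 2.40 times the level (DESeq2 adjusted p = 0.0745). The genes called with age showed small values here, -0.12 for Col18a1, -0.062 for Col5a3, -0.19 for Col15a1 and 0.052 for Col4a2. Col3a1 stayed called without any single library. Col1a2 was lost without young replicate 2 or 4, middle-aged replicate 1, 3 or 4, or aged replicate 2 or 3 (DESeq2 adjusted p from 0.0751 to 0.21). An edgeR test after its own filter on low counts called neither (adjusted p = 0.198 and 0.209).

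Markers of several kinds of collagen-making cells were higher in replicates 3 and 4, few of them past the test. The 12 fibroblast markers summed to 369.9 to 675 normalised counts in replicates 1 and 2 and to 538 to 1396 in replicates 3 and 4, and all 11 with an adjusted p were higher in the latter, Cd34 and Gas6 being called. The 6 mesothelial markers summed to 117 to 675 and to 469 to 1880.2, and all 6 leaned the same way with none called. The 12 stellate cell markers summed to 1639 to 1935 and to 1935 to 2456, all 12 in the same direction and none called. No gene of the 3 lists was at 0 in every library. Of 3 tested smooth muscle and myofibroblast markers 2 were above 0, with a median of 0.018, and all 4 tested adipocyte markers were above 0, with a median of 3.43, none called. Among the pathway lists, the log2 fold change between sets was above 0 for 13 of 19 genes of modification and folding, 10 of 11 of cleavage and cross-linking, 8 of 12 of breakdown, 7 of 10 receptors, 13 of 14 collagen-binding genes, 14 of 16 basement membrane partners and 18 of 20 genes of the TGF-beta axis, against 49.7% of all genes. The part of these cells in the collagen values was not tested.

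**Figure D4:**
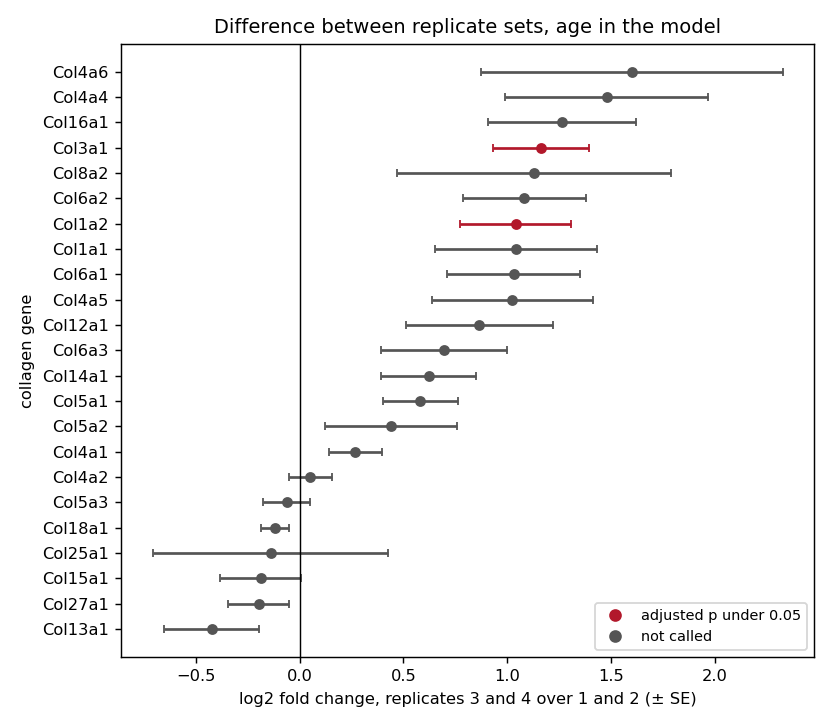
Log2 fold change of the 23 collagen genes that averaged 10 or more normalised counts between replicates 3 and 4 and replicates 1 and 2, with age in the model; bars are SE, and red marks the genes called at an adjusted p under 0.05. Col3a1 (1.16) and Col1a2 (1.04) are red, most of the other genes also lie above 0, and Col18a1, Col5a3, Col15a1 and Col4a2 lie within 0.2 of 0.

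A test of whether the aged-young change itself differed between the sets called Col5a2, which encodes another common chain of type V collagen (chromosome 1, 45374321 to 45503282, minus strand). It was 1 of 18 members with an adjusted p, against 0.732% of 10799 genes. Its normalised counts were 42.5, 45.8, 91.2 and 93.7 in young replicates 1 to 4, 34.8, 69.1, 97.1 and 128 in the middle-aged replicates and 97.3, 125, 65.5 and 55.4 in the aged replicates. In replicates 1 and 2 both aged livers lay above both young ones, and in replicates 3 and 4 both aged livers lay below both young ones. The change was 1.34 in the first set and -0.62 in the second, and the difference between them was -1.95 on the log2 scale (SE 0.53, DESeq2 adjusted p = 0.037). The call was lost without young replicate 1, 3 or 4, middle-aged replicate 3 or 4, or aged replicate 1, 3 or 4 (DESeq2 adjusted p from 0.0734 to 0.277), with differences between -1.83 and -2.12. Without young replicate 2 or aged replicate 2, DESeq2 gave no adjusted p. For the middle-aged change, no collagen gene differed between the sets by DESeq2 (0 of 25, against 0.423% of 13005 genes), none had an unadjusted p under 0.05, and edgeR after its filter also called none.

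**Figure D5:**
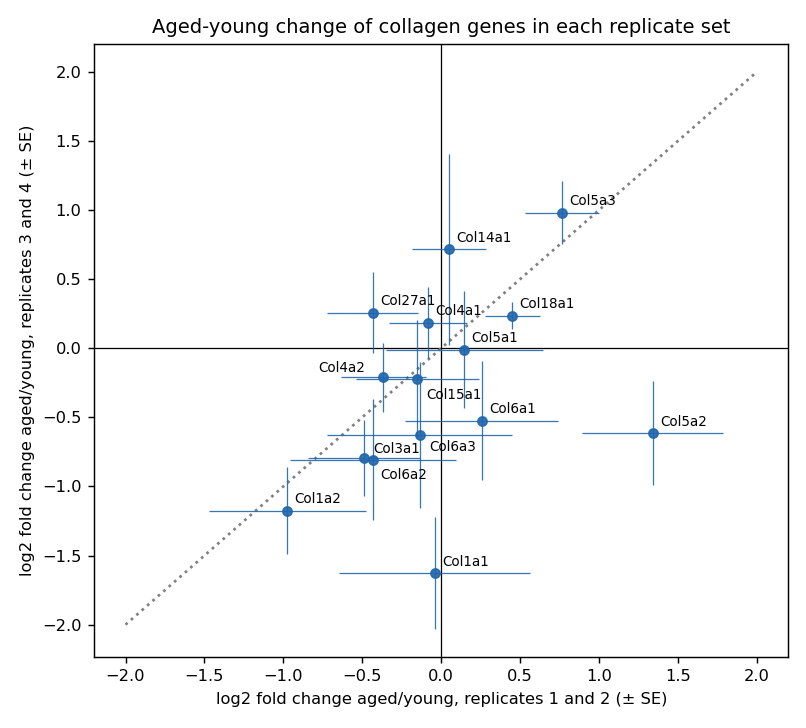
Log2 fold change of aged over young livers within replicates 1 and 2 (horizontal axis) and within replicates 3 and 4 (vertical axis) for 15 collagen genes, with SE bars and a dotted line where both are equal. Col5a3 (0.76 and 0.98) and Col18a1 (0.45 and 0.24) lie above 0 on both axes, Col1a2 (-0.98 and -1.17) below 0 on both, and Col5a2 (1.34 and -0.62) lies on opposite sides of 0.

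All collagen genes together took 0.102% ± 0.0136 of gene counts in the young livers, 0.127% ± 0.00968 in the middle-aged and 0.132% ± 0.00766 in the aged ones (SD, n = 4 each). The shares in percent were 0.105, 0.0831, 0.105 and 0.116 in young replicates 1 to 4, 0.113, 0.129, 0.136 and 0.128 in the middle-aged replicates and 0.129, 0.137, 0.138 and 0.122 in the aged replicates. Young livers lay below all middle-aged and aged livers except that middle-aged replicate 1 (0.113%) lay below young replicate 4 (0.116%). Without Col18a1 the shares were 0.0274% ± 0.0076, 0.0312% ± 0.00926 and 0.0289% ± 0.0073, and the ages overlapped. No test was applied to a sum over chosen genes. The log2 ratio of the aged to the young share was 0.37, and 0.075 without Col18a1. Taken relative to spike-in counts, a scale on which all gene counts move together, it was 1.43 within replicates 1 and 2 and 1.33 within replicates 3 and 4. Wilson 95% binomial intervals of the single shares were at most 0.0023 percentage points to either side and cover counting error only.

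The genes that modify, cut, bind and sense collagen were read from lists of the pathway, beside the 3.58% of all genes called for aged against young and the 6.41% called for middle-aged against young. Of 21 genes for modification and folding, 19 had an adjusted p for aged against young and none was called (median log2 fold change -0.026). Serpinh1, the collagen chaperone of the endoplasmic reticulum, had normalised counts of 118, 153, 231 and 294 in young replicates 1 to 4, 93.3, 93.4, 233 and 239.5 in the middle-aged replicates and 130.5, 113, 175 and 119.8 in the aged replicates. It was not called with age (log2 fold change -0.57 and SE 0.35, adjusted p = 0.456 by DESeq2), but was higher in replicates 3 and 4 (log2 fold change 0.86 and SE 0.18, adjusted p = 0.00511 by DESeq2), as was P3h4, a partner of lysine hydroxylation (log2 fold change 1.64, DESeq2 adjusted p = 0.0113). P4ha1, a prolyl hydroxylase chain, had 114 ± 16.5, 109 ± 13.2 and 106 ± 13.9 normalised counts (SD, n = 4 each; aged against young, DESeq2 adjusted p = 0.851).

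Of 14 genes for procollagen cleavage and cross-linking, 11 had an adjusted p for aged against young and none was called (median -0.28). Lox, the lysyl oxidase that cross-links fibres, had only 0 to 12.4 normalised counts per liver. Of 17 genes of collagen breakdown and its inhibitors, Mmp14 rose with age, the only one of 11 called. Mmp14, a membrane-bound collagenase, had normalised counts of 185, 236, 209 and 211 in young replicates 1 to 4, 227, 316, 244 and 267 in the middle-aged replicates and 372, 343, 425 and 344 in the aged replicates. All aged livers lay above all younger livers (log2 fold change 0.82 and SE 0.13, adjusted p = 7.20e-07 by DESeq2; against middle-aged, log2 fold change 0.49 and SE 0.13, adjusted p = 0.0226 by DESeq2). In middle-aged livers Timp3, an inhibitor of metalloproteinases, was higher than in young livers (118 ± 48.8 against 66.9 ± 10.8, SD, n = 4 each; log2 fold change 0.81 and SE 0.26, adjusted p = 0.0385 by DESeq2), the only one of 7. Timp1 ranged from 0 to 24.4 normalised counts and Mmp2, a gelatinase, from 8.92 to 79.1, and neither was called with age.

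Of 12 collagen receptors, 10 had an adjusted p for aged against young, and Cd36, a scavenger receptor with many ligands besides collagen, was the only one called (log2 fold change 1.74 and SE 0.48, adjusted p = 0.016 by DESeq2). Cd36 had 308, 213, 242 and 234 in young replicates 1 to 4, 594, 624, 453 and 361 in the middle-aged replicates and 261, 432, 1502 and 1132 in the aged replicates, so that aged replicates 3 and 4 lay far above aged replicate 1, which was within the young range. Ddr2, a receptor kinase for fibrillar collagen, was higher in replicates 3 and 4 (log2 fold change 0.91 and SE 0.22, adjusted p = 0.0214 by DESeq2). Of 15 collagen-binding proteoglycans and glycoproteins, 14 had an adjusted p, and Fn1, the fibronectin gene that hepatocytes also express for plasma, rose in middle-aged (log2 fold change 0.49 and SE 0.14, adjusted p = 0.016 by DESeq2) and aged livers (log2 fold change 0.46 and SE 0.14, adjusted p = 0.0381 by DESeq2). Fn1 had 7942, 6350.1, 6405 and 6903 in young replicates 1 to 4, 8252, 11084, 9624 and 9803 in the middle-aged replicates and 7150.5, 11029, 10858 and 8899.8 in the aged replicates, with aged replicate 1 within the young range. Dcn, which encodes decorin, had counts of 955, 889, 1502 and 1826 in young replicates 1 to 4, 1133, 1259.6, 2299 and 2051 in the middle-aged replicates and 1467, 1108, 2216 and 1698 in the aged replicates. It was higher in replicates 3 and 4 at every age (log2 fold change 0.77 and SE 0.10, adjusted p = 1.99e-09 by DESeq2) and was not called with age (log2 fold change 0.33 and SE 0.28, adjusted p = 0.631 by DESeq2). Ogn followed the same split (log2 fold change 1.59, DESeq2 adjusted p = 0.0467), while Lum, the lumican gene, was called by neither (DESeq2 adjusted p = 0.588 between sets and 0.794 with age).

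Of 16 basement membrane partners, none was called in aged livers and the laminin chain gene Lamc3 was the only one of 14 called in middle-aged livers, at 32.5 ± 18.9 against 5.88 ± 4.43 normalised counts in young (SD, n = 4 each; log2 fold change 2.45 and SE 0.70, adjusted p = 0.0145 by DESeq2). The median of the tested partners was 0.15 for aged and 0.41 for middle-aged against young, where all genes had medians of -0.0003 and 0.0065. Of 20 genes of the TGF-beta axis, the main signalling route to collagen transcription, none was called in aged livers, and in middle-aged livers only Smad3, a signal transducer of that route, rose (log2 fold change 0.55 and SE 0.17, adjusted p = 0.0307 by DESeq2). Smad3 had 94.5, 89.2, 114 and 107 in young replicates 1 to 4, 110.2, 154, 152 and 176 in the middle-aged replicates and 133, 169, 138 and 138 in the aged replicates. The coreceptor gene Tgfbr3 was higher in replicates 3 and 4 (log2 fold change 0.80, DESeq2 adjusted p = 0.0215).

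Among the markers of cells that can make collagen, Ecm1 of the stellate list rose in aged livers, and Dpt, a dermatopontin gene of fibroblasts, fell (1 of 10). No mesothelial marker of 6 and none of 3 tested smooth muscle and myofibroblast markers was called with age. Acta2, the smooth muscle actin of activated stellate cells, stayed at 4.82 to 37.1 normalised counts in all livers. Of 6 tested cholangiocyte markers Sox9 rose in aged livers and was the only one with a log2 fold change above 0 (median -0.19), and of 7 Kupffer cell markers Marco rose, with 2 above 0 (median -0.050). No sinusoidal endothelial, large vessel endothelial, hepatocyte, adipocyte or pancreatic marker was called between aged and young. All 8 genes of each of the first 3 lists had an adjusted p, but only 1 of 5 adipocyte and 1 of 5 pancreatic markers did.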

How the data were processed

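Polyadenylated or total RNA selection is not given in the sources used here. Per the labels, RNA was extracted with Direct-zol columns, libraries were made with the NEBNext Ultra II Directional kit, and each library came from 1 animal. Per the submitters' processing notes, the authors used STAR 2.5.2b, SAMtools 1.9 and featureCounts on mm10 (GRCm38); the deposited table holds raw counts per gene, and the strand setting of the counting is not given. These sources describe RNA of 4 young and 4 old livers, while the table holds 12 livers of 3 ages, so how the middle-aged libraries were made is not stated. Rows of 92 spike-ins were left out of all fits.

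DESeq2 1.42.0 (R 4.3.3) was fitted to the 28449 genes with a count, with age as the term, all 12 libraries together and its default independent filter. A gene was called at a Benjamini-Hochberg adjusted p under 0.05 over all genes. Set terms came from fits with age and replicate set, and interactions from their product. edgeR 4.0.16, other size factors, filters, a set covariate, a replicate block, single sets and leaving out libraries were alternatives. On counts simulated with known changes, the aged-young test was run in DESeq2 and in edgeR with and without its filter. The DESeq2 set term and aged-young interaction were run on the same counts, with no set effect simulated. The other fits were not tested on simulated counts. Depth was 8124312 to 10527159 counts, and intervals on shares cover counting error only. Genes were described in full at a mean of at least 50 normalised counts or if called, with Col6a3 and a few pathway genes always given. The members and lists were chosen with earlier results of these data known. A call within the stellate cell list is not reported here.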

Additional observations from a re-analysis of the deposited data

Results flagged for a closer look

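Among 60 groups of 4 livers examined for a liver far from its group, 6 stood out by Dixon's criterion at the 95% level, which chance alone meets in about 1 group in 20. Of these, 4 were collagen values. Middle-aged replicate 2 had 9857 normalised counts of Col18a1, where the other 3 middle-aged livers had 8409.8 to 8641. Middle-aged replicate 4 had 779.7 of Col14a1 against 347 to 367 in the rest of its group. Young replicate 2 had 319.7 of Col5a3 against 258 to 261, and this liver lay nearest to the older groups. Young replicate 4 had 91.8 of Col6a3 against 36.9 to 45.0. The other 2 were summed adipocyte markers, 64.0 for young replicate 3 and 559.8 for middle-aged replicate 3, beside the Col6a5 values of these livers.

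The aged-young change of Col5a2 differed between the replicate sets by -1.95 on the log2 scale (DESeq2 adjusted p = 0.037). Both aged livers lay above both young livers in replicates 1 and 2 and below them in replicates 3 and 4. With 2 livers per age and set, the difference rests on 8 livers.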

How the results depend on the processing

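Leaving out 1 library at a time, between 1 and 2 members were called for aged against young, 1 and 4 for middle-aged against young, 0 and 2 for aged against middle-aged, 2 and 5 over the 3 ages, 1 and 7 between the replicate sets, and 0 and 1 for the difference in the aged-young change. The main counts were 2, 3, 1, 4, 2 and 1, and no member was called for the difference in the middle-aged change under any setting run. With 1 library left out, the calls over all genes also moved. In the same order they ran from 237 to 1291, 345 to 1095, 45 to 198, 496 to 1637, 6 to 152 and 49 to 126. Unfiltered edgeR had infinite prior degrees of freedom. It called 7, 5, 8 and 13 members for aged against young, aged against middle-aged, the 3 ages and the sets. These stood beside 880, 446, 1494 and 652 of 28449 genes. For middle-aged against young it called 2 members beside 1154 genes. Of the 7 and 5 members, 5 and 5 were lower in aged livers, as were 422 of the 880 and 270 of the 446 genes. After its own filter, a setting chosen after seeing the data (prior degrees of freedom 5.11), edgeR called 1, 0, 2 and 0. These stood beside 172, 13, 234 and 1 of 12099 genes. For middle-aged against young it called 2 members, beside 280 genes. For the difference in the aged-young change it called 0, beside 23 genes. Without young replicate 3 and middle-aged replicate 1, the counts for the 3 pairs of ages, in the order first given, were 1, 0 and 2. For the sets the count was 1. Over all genes, 302 of 13521, 271 of 12609, 60 of 14436 and 20 of 13539 were called. Without young replicate 3 and middle-aged replicate 3, also added later, the member counts were 1, 0 and 0 for the pairs and 2 over the 3 ages. These stood beside 285 of 13681, 241 of 12193, 47 of 9714 and 408 of 12690 genes. Within replicates 1 and 2 no member was called for any pair or over the 3 ages (0). Over all genes, 137 of 11066, 251 of 11535, 34 of 11066 and 270 of 13413 were called there. Within replicates 3 and 4 there were 3 for aged against young (482 of 11411 genes), 0 for middle-aged against young (305 of 8379) and 5 for aged against middle-aged (307 of 12421). For the sets, 4 members were called when genes needed 10 counts in 4 samples, beside 87 of 12174 genes. Without independent filtering 1 was called, beside 24 of 28449 genes.

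With the replicate block 5, 1 and 3 members were called for the 3 pairs, beside 655 of 22955, 385 of 11902 and 426 of 28449 genes. Of the 5 and 3 members, 3 and 3 were lower in aged livers, as were 475 of the 655 and 370 of the 426 genes. Col4a2 and Col5a3 were not called for middle-aged against young (DESeq2 adjusted p = 0.0712 and 0.0903). Same-numbered livers did not clearly deviate together, with correlations from -0.30 to 0.16 and 2 of 12 above 0.1. Livers of different numbers were not compared, so pairing by number was not shown and this check cannot settle it.

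The log2 ratios of the collagen share were 0.37 for aged to young, 0.31 for middle-aged to young and 0.054 for aged to middle-aged, with single libraries left out 0.28 to 0.43, 0.22 to 0.38 and 0.0039 to 0.091. Without Col18a1 the first and last were 0.075 and -0.11. Against spike-in counts, with 2 livers per age in each set, they were 1.43, 1.70 and -0.27 in replicates 1 and 2. In replicates 3 and 4 they were 1.33, 1.58 and -0.25. Of 1612 comparisons of single genes with an alternative, 1515 kept their side of the threshold, 61 lost a call, 36 gained one and 0 turned a called direction. The 1515 include uncalled genes whose sign changed. For aged against young, Col5a2 was 0.33 in the main fit and -0.62 within replicates 3 and 4. Filtered edgeR no longer called Col5a3 in middle-aged livers (adjusted p = 0.0743) or the later fall of Col15a1 (0.0899), and unfiltered edgeR no longer called Col4a2 (0.0562). The cause of these changes was not tested. With 4 livers per age, intervals for Col1a1 and Col3a1 span more than 2 log2 units.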
